A study of Sus scrofa with 24 samples.

Results

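Gene expression in the longissimus dorsi of 3 gilts fed olive oil was compared with that of 3 gilts fed coconut oil. These 6 arrays are part of a set of 24, and the comparison was made across all 23999 probe sets that are not array controls. A gilt is a young female pig and the longissimus dorsi is the long muscle of the back, from which the loin is cut. All pigs were crossbreds of Landrace, Large White and Duroc that entered the study at 71 kg and about 130 days of age. The whole study housed 72 pigs in 24 pens of 3, with 6 pens for each of 4 fats, and the fat made up 3.0% of the feed. Besides olive oil and coconut oil, the fats were soybean oil and beef tallow. The arrays cover each fat in gilts and in barrows (castrated males), with 3 pigs per combination. There was no group without added fat, so every value below sets one fat against another. Pigs are named by the running number in their titles: pigs 4, 7 and 12 received olive oil and pigs 1, 5 and 6 received coconut oil. The labels do not say which pigs shared a pen. The p-values measure only the spread between pigs of the same group, pooled over all 24 arrays.

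Olive oil is rich in oleic acid, a long-chain monounsaturated fatty acid. Coconut oil consists mostly of saturated fatty acids, lauric acid and other medium-chain acids above all, which are absorbed and oxidised more readily than long-chain acids. Skeletal muscle takes up fatty acids, burns them in its mitochondria or stores them as triglyceride, and the fat cells that lie between its fibres make up the marbling of meat. The nuclear receptors of the PPAR family and the transcription factors of the FOXO family adjust the fuel use and the protein breakdown of muscle to the supply of nutrients.

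No gene with a symbol differed between the oils past the adjusted threshold. Limma called 1 of the 23999 probe sets (0.00417%) at a Benjamini-Hochberg adjusted p under 0.05, and this probe set, Ssc.29946.1.A1_at, carries no gene symbol in the array's annotation. Its signal was 41.6, 19.8 and 47.4 in olive pigs 4, 7 and 12, and 3.7, 3.6 and 3.6 in coconut pigs 1, 5 and 6. The olive pigs were all above the coconut pigs, but every one of these signals is dim, below the level of 86.3 that defines a measured gene here. The difference was 2.91 ± 0.31 on the log2 scale (SE, n = 3 and 3, adjusted p = 0.00066). The call was lost when a pseudocount of 16 was added in place of 1 (log2 difference 1.37), and also when the spread was estimated from the 6 arrays or the 12 gilts alone.

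Before adjustment, 1941 probe sets (8.09%) had a p under 0.05, of which 1057 (4.4%) were higher with olive oil and 884 (3.68%) were lower. The groups did not overlap at 1360 probe sets (5.67%) with all olive pigs above and at 1484 (6.18%) with all olive pigs below. A gene-level view took for each gene the probe set with the highest mean signal and kept the 5345 genes whose mean was at or above the 40th percentile of all probe sets. Of these genes, 430 (8.04%) had an unadjusted p under 0.05, 276 (5.16%) with the higher signal under olive oil and 154 (2.88%) with the lower. The median difference over the 5345 genes was 0.00, and 50.0% of the genes had a positive difference (51.4% without pig 12). None of the 5345 passed the adjusted threshold (0.0%).

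Most of the higher genes were highest in a single olive pig, pig 12. It had the highest signal of the 6 pigs at 240 of the 276 higher genes (87.0%) and the lowest at 104 of the 154 lower ones (67.5%). The choice of genes by this contrast favours an olive pig at these extremes, and the same shares over all genes are not given here. Without pig 12, the count of genes with an unadjusted p under 0.05 was 165 (3.09%), and the balance turned to 70 higher (1.31%) and 95 lower (1.78%). Only 51 of the 276 higher genes (18.5%) and 60 of the 154 lower genes (39.0%) had a p under 0.05 in the same direction without pig 12. The genes were chosen with pig 12 included and a smaller group is less precise, so some loss is likely from the removal itself. The shares kept without another pig are not given here. Over all probe sets, 1237 (5.15%) had an unadjusted p under 0.05 without pig 12, against 1459 without coconut pig 6 and 2700 without olive pig 7. Without pig 12, limma called 2 probe sets (0.00833%), Ssc.29946.1.A1_at (2.68) and Ssc.29852.1.A1_at (-3.1), both without a symbol and both below the level of a measured gene.

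How far pig 12 stood apart depended on which probe sets were compared. Over the 14399 probe sets at or above the level, its mean correlation with the other 23 arrays was 0.907, the lowest of the 24. Over all probe sets the value was 0.917, and pigs 11 (0.912) and 16 (0.915), which are in other groups, lay lower. The array was scaled like the rest, with a trimmed mean signal between 500.1 and 500.2 on all 24 arrays, and its median of 165.4 lay within the range of 138.3 to 173.5. Its GAPDH 3′ to 5′ signal ratio was 1.14, within the range of 1.07 to 1.18 over the 6 arrays. Its log2 ratio for actin was 1.61, above the 0.96 to 1.38 of the other 5. Over all 24 arrays this ratio ran from 0.88 in pig 15 to 1.84 in pig 16, with pig 9 at 1.66, so pig 12 lay within that range. The part of RNA quality in the results was not tested.

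The tissue label held in all 6 pigs. All 13 muscle markers of a list of 20 that the array carries, among them the fast myosin MYH2, the slow myosin MYH7, titin (TTN), nebulin (NEB) and creatine kinase (CKM), were measured, with no signal under 3244.2. The summed signal of these markers was 291439 in pig 12 and lay between 406710 and 489872 in the other 5 pigs. Pig 12 was the lowest of the 6 for 12 of the 13 markers. For MYH7 the signals were 48705, 44582 and 27354 in olive pigs 4, 7 and 12 and 44602, 39879 and 46920.4 in coconut pigs 1, 5 and 6. The olive and coconut pigs overlapped, with pig 12 alone below all others. The median difference of the 13 markers was -0.15 with pig 12 and 0.09 without it. In bulk muscle a smaller share of fibres and less RNA per fibre cannot be told apart.

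The 12 genes with the smallest p in each direction are described first, by what their proteins do. All 24 had groups that did not overlap, and all kept an unadjusted p under 0.05 without pig 12. The choice of the smallest p on these same pigs makes both likely. Their adjusted p ran from 0.321 to 0.451 among the higher and from 0.421 to 0.451 among the lower, so none passed.

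Several leading genes belong to protein turnover. PSMD10, also known as gankyrin, helps to assemble the 26S proteasome. Its signal was 504, 593 and 553 in olive pigs 4, 7 and 12 against 221, 368 and 298 in coconut pigs 1, 5 and 6. The 3 olive pigs were close to each other and all above the coconut pigs, and the difference was 0.92 ± 0.19 with or without pig 12 (SE 0.21 without it; adjusted p = 0.321 in limma). RNF13 encodes a membrane-bound ubiquitin ligase of endosomes. Its signal was 431, 627 and 1209.5 in the olive pigs and 160.5, 133 and 116 in the coconut pigs. The coconut pigs were uniformly low, and the difference of 2.34 ± 0.52, a 5.06-fold difference, was the largest among the 12 higher genes (adjusted p = 0.344). A second RNF13 probe set differed by only 0.34, so the probe sets of the gene disagree in size.

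On the lower side, FBXO32 encodes atrogin-1, the muscle-specific F-box protein that marks proteins for breakdown in wasting muscle. Its signal was 5023, 797 and 2772 in olive pigs 4, 7 and 12 and 9914, 11532 and 12480.4 in coconut pigs 1, 5 and 6. All olive pigs lay below all coconut pigs, with pig 7 far below the rest. The difference was -2.33 ± 0.67, a 5.04-fold lower level (adjusted p = 0.451), and the second FBXO32 probe set gave -2.40. It was -2.49 without pig 12, and leaving out each pig in turn gave -2.92 to -1.59. SIAH2, a ubiquitin ligase of the hypoxia response, had signals of 551, 914 and 530.1 in the olive pigs and 1003, 1246 and 1377 in the coconut pigs. Here pig 7 was close to the lowest coconut pig and the difference was -0.89 ± 0.22. The other 4 SIAH2 probe sets differed by -0.38 to -0.09. RAB40C, a small GTPase that recruits a ubiquitin ligase, differed by -0.57 ± 0.15.

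**Figure D1:**
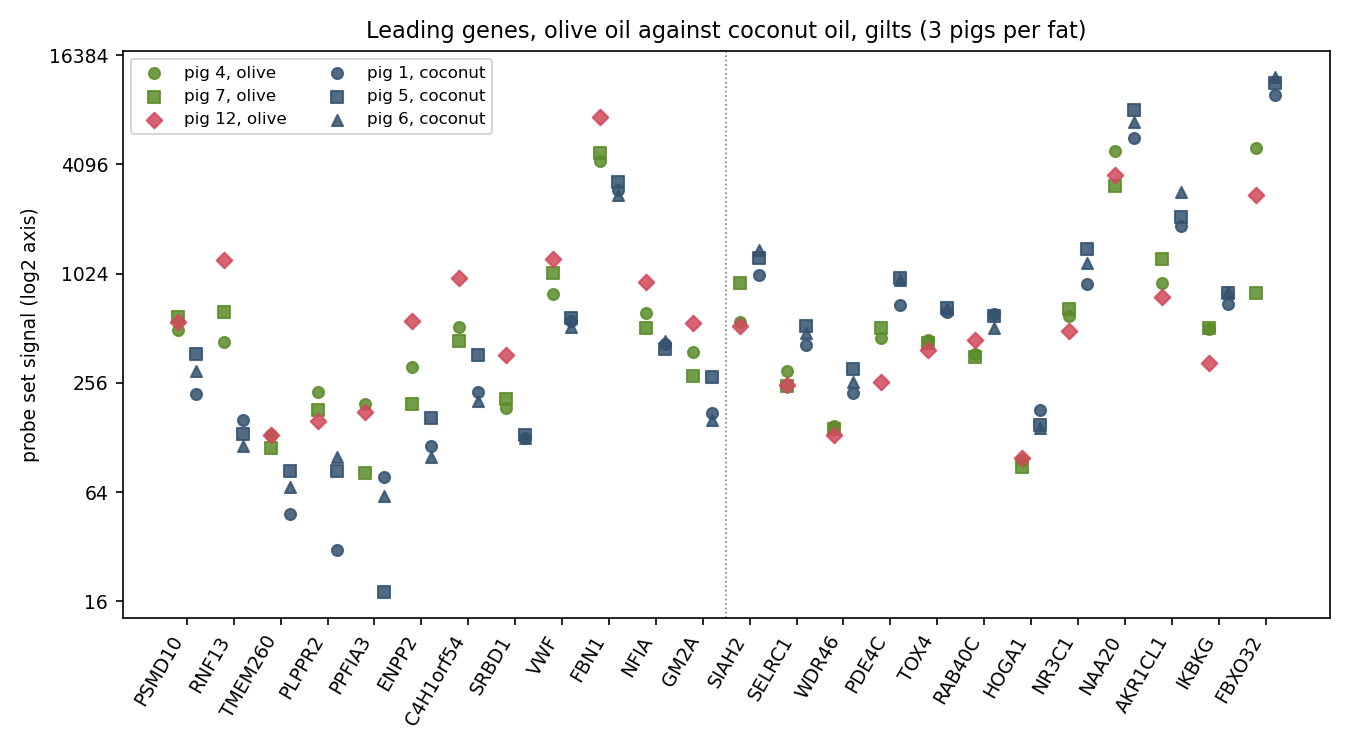
Probe set signal on a log2 axis of the 24 leading genes, 12 with the higher and 12 with the lower signal under olive oil, 1 point per gilt, with olive pigs 4, 7 and 12 and coconut pigs 1, 5 and 6 marked separately. The groups are apart for every gene, as the choice of the smallest p makes likely, and the spread is widest for FBXO32, where pig 7 lies at 797.

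Other leading genes act in signalling and in transcription. NR3C1 encodes the glucocorticoid receptor. Its signal was 597, 655 and 496 in olive pigs 4, 7 and 12 and 903, 1406 and 1177 in coconut pigs 1, 5 and 6. All olive pigs were lower, and the difference was -0.98 ± 0.27 (adjusted p = 0.451), with -0.57 at the second probe set of the gene. IKBKG, the regulatory subunit of the kinase that activates NF-kappa-B, differed by -0.80 ± 0.23 and by -0.54 at its second probe set. PDE4C, which degrades cyclic AMP, differed by -1.13 ± 0.30. TOX4, part of a protein phosphatase complex on chromatin, had a narrow spread, with 439, 424 and 388 in the olive pigs and 629.9, 659 and 651 in the coconut pigs. Its difference was -0.63 ± 0.17. The transcription factor NFIA lay on the higher side, with 0.68 ± 0.19, and 0.24 and 0.49 at its other 2 probe sets.

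The other lower genes serve varied tasks. SELRC1, an assembly factor of cytochrome c oxidase, had signals of 298, 247 and 249 in olive pigs 4, 7 and 12 and of 413, 530.0 and 481 in coconut pigs 1, 5 and 6. The groups were well apart and the difference was -0.84 ± 0.20 (adjusted p = 0.421). HOGA1, a mitochondrial enzyme of hydroxyproline breakdown, differed by -0.74 ± 0.20, and the aldo-keto reductase AKR1CL1 by -1.24 ± 0.35. NAA20, the catalytic subunit of an N-terminal acetyltransferase, differed by -0.86 ± 0.24. WDR46, which serves ribosome assembly, differed by -0.89 ± 0.23, but its second probe set differed by 0.10.

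Among the higher genes, ENPP2 encodes autotaxin, the secreted enzyme that makes lysophosphatidic acid. Its signal was 313, 195 and 565 in olive pigs 4, 7 and 12 and 115, 165 and 99.4 in coconut pigs 1, 5 and 6. Pig 12 was the highest and pig 7 was close to coconut pig 5, and the difference was 1.39 ± 0.37 and 0.99 without pig 12. PLPPR2, a member of the family of lipid phosphatase-related proteins, had signals of 229, 182 and 158.5 against 30.9, 84.0 and 100.4. The difference was 1.54 ± 0.38, but -0.18 at its second probe set. TMEM260, an enzyme that adds mannose to proteins, had signals of 132, 112 and 132 against 48.4, 83.6 and 68.3, and differed by 0.93 ± 0.22. GM2A, the activator of ganglioside breakdown in lysosomes, differed by 0.96 ± 0.26. The scaffold protein PPFIA3 differed by 1.66 ± 0.43, C4H1orf54 by 1.22 ± 0.32 and SRBD1 by 0.89 ± 0.24.

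The last members of the 24 belong to vessels and to connective tissue. VWF, the von Willebrand factor of endothelial cells, had signals of 787, 1036 and 1226 in olive pigs 4, 7 and 12 and of 563, 586 and 519.6 in coconut pigs 1, 5 and 6. All olive pigs were higher, and the difference was 0.85 ± 0.23 and 0.70 without pig 12 (adjusted p = 0.451 with all pigs). FBN1, fibrillin-1 of elastic microfibrils, had signals of 4298, 4724 and 7483 against 2972, 3267 and 2773. Its difference was 0.83 ± 0.22, 0.92 at a second probe set, and 0.59 without pig 12.

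Extracellular matrix genes had mostly higher signals in the olive pigs. All 25 that the array carries of a list of 35 fibroblast and matrix genes were measured, and 24 of the 25 had a positive difference. The olive pigs were all above the coconut pigs for 14 of the 25, against 6.17% of all 5345 genes, and for none were they all below. The median difference was 0.56, against 0.00 over all genes. Of the 25 members, 7 had an unadjusted p under 0.05, all positive, against 5.16% of all genes in that direction. The list was chosen with earlier results of these data known, and its members were measured in the same 6 pigs. The shares beside all genes are thus a description and no test of the list. Pig 12 was the highest of the 6 for 21 of the 25. Without it the median was 0.28, with 22 positive differences and 2 members at an unadjusted p under 0.05, FBN1 and THY1.

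THY1, a surface glycoprotein of fibroblasts, had signals of 4049.5, 4523 and 6679.9 in olive pigs 4, 7 and 12 and of 2482, 3174 and 2257 in coconut pigs 1, 5 and 6. Every olive pig was above every coconut pig, and the difference was 0.93 ± 0.26 and 0.71 without pig 12 (adjusted p = 0.451 with all pigs). Its other 2 probe sets differed by 0.88 and 2.16. MFAP5, a glycoprotein of microfibrils, had signals of 2987, 4748 and 7415 against 1386, 2758 and 2477. Its difference was 1.16 ± 0.41, and here the barrows gave a similar value, 0.95. Fibronectin (FN1) had signals of 10759, 7235 and 18613 against 6308, 6851 and 6145. Pig 7 was close to the coconut pigs, and the difference of 0.82 ± 0.30 was 0.46 without pig 12.

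Among the other matrix members, the collagen VI chain COL6A2 differed by 0.74 ± 0.27, periostin (POSTN) by 1.22 ± 0.55 and biglycan (BGN) by 0.97 ± 0.45. Without pig 12 these were 0.60, 0.84 and 0.37. The fibrillar collagens were less regular. COL1A2 differed by 0.48 ± 0.52, and COL3A1 was the only member with a negative difference, -0.17 ± 0.57. All 11 measured members of a list of 20 genes for collagen folding and crosslinking had a positive difference, with a median of 0.54 that was 0.13 without pig 12. Pig 12 was the highest for 10 of the 11. LOXL1, which crosslinks elastin, differed by 1.00 ± 0.43. It was the only one of the 11 with an unadjusted p under 0.05, against 8.04% of all genes. None had without pig 12.

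The summed signal of the 25 matrix markers ranged from 117159 to 174893 in the olive pigs, with pig 12 the highest, and from 94868 to 109072 in the coconut pigs. No marker was at 0 in any pig. The summed muscle markers ran the other way in pig 12, as given above. Whether a larger share of connective tissue in the sampled piece had a part in these values was not tested.

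**Figure D2:**
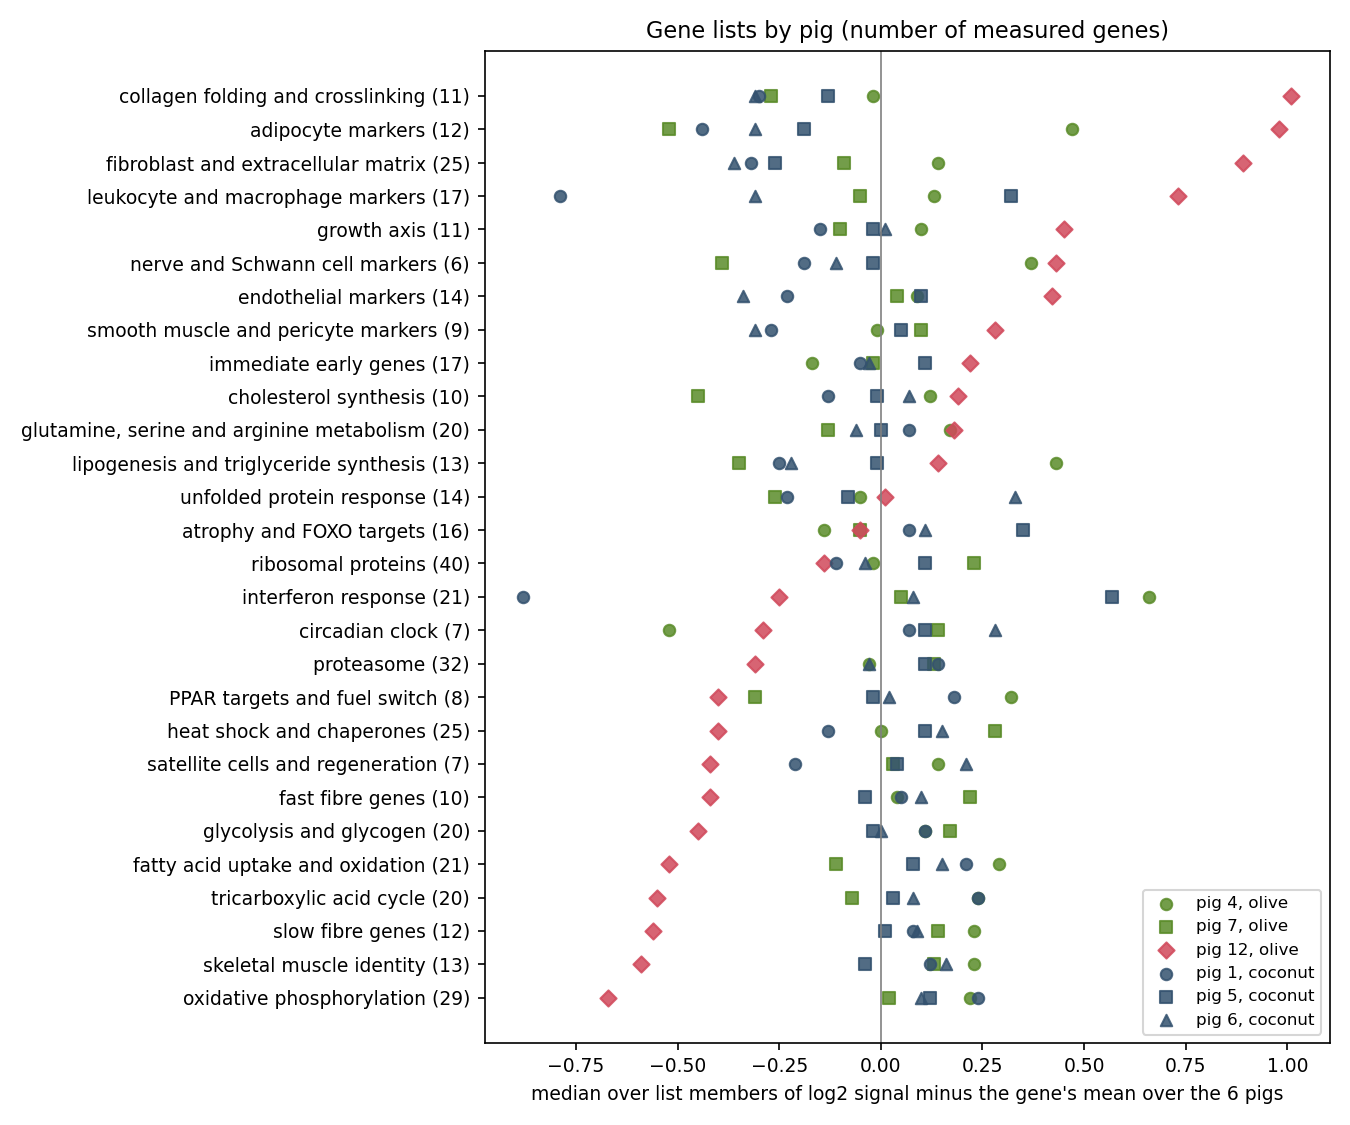
Gene lists by pig: for each list the median over its measured members of the log2 signal minus the gene's mean over the 6 gilts, 1 point per gilt, with the number of measured genes in brackets. Pig 12 is at 0.89 for matrix genes and at -0.67 for oxidative phosphorylation, outside the other 5 pigs in both, while olive pig 7, at -0.52 for adipocyte markers, lies below the coconut pigs.

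Several fat cell genes separated the olive pigs from each other rather than the oils. ADIPOQ encodes adiponectin, a hormone made by fat cells. Its signal was 5814, 825 and 11439 in olive pigs 4, 7 and 12 and 1098, 1115 and 1150.1 in coconut pigs 1, 5 and 6. Pigs 4 and 12 were far above the coconut pigs and pig 7 was below all of them, so the groups overlapped and the difference was 1.76 ± 0.86 (adjusted p = 0.615). It was 0.97 without pig 12 and 2.86 without pig 7. FABP4, the fatty acid binding protein of fat cells, had signals of 20081, 8238 and 23254 against 7857, 8833 and 6077. Its difference was 1.06 ± 0.39, or 0.78 without pig 12, with pig 7 again among the coconut pigs. PPARG, the nuclear receptor that drives fat cell formation, had signals of 519, 175 and 1095 against 169, 204 and 185. The difference was 1.32 ± 0.59 and 0.70 without pig 12.

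Of 18 fat cell markers, 12 of the 13 on the array were measured, 7 with a positive and 5 with a negative difference. Their median was 0.79 and 0.30 without pig 12. FABP4 and PPARG, 2 of the 12, had an unadjusted p under 0.05 with all pigs, against 8.04% of all 5345 genes. No member had without pig 12. For no member did the groups stand apart. Leptin (LEP) differed by -0.16 ± 0.37 and the lipase PNPLA2 by -0.04 ± 0.31. Pig 7 was the lowest of the 6 for 6 of the 12 and pig 12 the highest for 8, so the order of ADIPOQ was not shared by all. GPD1 had signals of 7101, 7780 and 3975 in olive pigs 4, 7 and 12, and CFD had 2811, 3236 and 5526. The summed signal of the 13 markers was 50014, 27202 and 65217 in olive pigs 4, 7 and 12 and lay between 26123 and 29820 in the coconut pigs, with no marker at 0. Pigs 4 and 12 thus had the highest sums, in which the brightest gene, FABP4, weighs most (20081 and 23254). The part of fat cells in the other results was not tested.

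Some enzymes of fat synthesis had pigs 4 and 12 high and pig 7 low, as ADIPOQ did. DGAT2, which joins the last fatty acid to triglyceride, had signals of 1724, 182 and 2624 in olive pigs 4, 7 and 12 and of 227, 252 and 320.3 in coconut pigs 1, 5 and 6. ELOVL6, which lengthens palmitate, had 1996, 443 and 3395 against 456, 435 and 526. Fatty acid synthase (FASN) had 889.6, 206.5 and 847 against 177, 279 and 316. In these 3, pigs 4 and 12 were above all coconut pigs and pig 7 was near or below them. Over the 13 measured genes of fat synthesis the order was mixed, with pig 7 the lowest of the 6 for 5 and pig 12 the highest for 5 and the lowest for 3. The differences were 1.83 ± 0.87 for DGAT2, 1.61 ± 0.81 for ELOVL6 and 1.10 ± 0.87 for FASN, with adjusted p of 0.614, 0.624 and 0.753. Without pig 12 they were 1.08, 1.00 and 0.78.

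SCD, the stearoyl-CoA desaturase that makes oleic acid from stearic acid, is the enzyme whose product olive oil supplies. Its signal was 805, 168 and 1036 in olive pigs 4, 7 and 12 and 321, 243 and 289.7 in coconut pigs 1, 5 and 6. Pigs 4 and 12 were above and pig 7 below every coconut pig, and the difference was 0.88 ± 1.20 (adjusted p = 0.872) and 0.38 without pig 12. The related desaturase SCD5 had 166, 114 and 464 against 83.2, 105 and 44.2. Its groups stood apart by a small gap, and the difference was 1.49 ± 0.47 and 0.91 without pig 12 (adjusted p = 0.505 with all pigs). Of the 13 measured genes of fat synthesis, SCD5 and DGAT2 had an unadjusted p under 0.05, against 8.04% of all 5345 genes, and none had without pig 12. Of the differences, 7 of the 13 were negative, and the median was -0.08, or -0.05 without pig 12. ACSL1, which activates long-chain fatty acids, differed by -0.55 ± 0.30.

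Genes of fatty acid oxidation had no member with an unadjusted p under 0.05. Of 21 measured, 19 had a negative difference and the median was -0.28, or -0.10 without pig 12, which was the lowest of the 6 for 15. CPT1B, the muscle enzyme that admits long-chain fatty acids to mitochondria, had signals of 3263, 2593 and 1321.5 in olive pigs 4, 7 and 12 and of 3139.9, 3104 and 3280.4 in coconut pigs 1, 5 and 6. Pig 12 alone was far below, and the difference was -0.50 ± 0.40 and -0.13 without it. The acyl-CoA dehydrogenases ACADVL and ACADL differed by -0.63 ± 0.39 and -0.38 ± 0.23, and by -0.26 and -0.10 without pig 12. PDK4, the kinase that turns muscle from glucose to fat, differed by -0.12 ± 0.29, and by 0.13 without pig 12.

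PPARGC1A encodes the coactivator PGC-1-alpha, which drives the making of mitochondria. Its signal was 19384, 2081 and 10791 in olive pigs 4, 7 and 12 and 20875, 28387 and 25499.5 in coconut pigs 1, 5 and 6. All olive pigs were below the coconut pigs, pig 4 by little and pig 7 by much. The difference was -1.71 ± 0.66 (adjusted p = 0.561), -1.96 without pig 12 and -0.77 without pig 7. PPARGC1A was the only member of 8 measured PPAR targets and fuel switch genes with an unadjusted p under 0.05, against 8.04% of all 5345 genes. UCP3 and CPT1A, targets of PPAR receptors, differed by 0.67 ± 0.54 and 0.51 ± 0.38.

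Mitochondrial genes did not follow PPARGC1A pig by pig. All 29 measured subunits of oxidative phosphorylation had a negative difference, with a median of -0.29, and pig 12 was the lowest of the 6 for all 29. Without pig 12 the median was -0.01 and 13 of the 29 differences were positive. NDUFA9, a subunit of complex I, had signals of 4911, 4158 and 2384 in olive pigs 4, 7 and 12 and of 5793, 4703.5 and 4912 in coconut pigs 1, 5 and 6. Its difference was -0.49 ± 0.27, or -0.18 without pig 12. Pig 7, which had the lowest PPARGC1A, was at 0.02 when the list was summarised as the median log2 deviation from the mean of the 6 pigs, against -0.67 in pig 12 and 0.10 to 0.24 in the other 4. No member had an unadjusted p under 0.05.

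The tricarboxylic acid cycle list gave a median of -0.26 over 20 genes and -0.01 without pig 12, the lowest pig for 17. DLAT, a subunit of pyruvate dehydrogenase, differed by -0.58 ± 0.21 with the groups apart. PC, the pyruvate carboxylase that also serves fat synthesis, had signals of 2875, 649 and 6018 in olive pigs 4, 7 and 12 and of 864, 900.5 and 1046 in coconut pigs 1, 5 and 6. This is the order of ADIPOQ and DGAT2, with pigs 4 and 12 high and pig 7 low. The difference of PC was 1.26 ± 0.57, or 0.55 without pig 12. Of the 20, only DLAT and PC had an unadjusted p under 0.05, a share near the 8.04% of all 5345 genes. Neither had without pig 12. Glycolysis and glycogen genes had a median of -0.09 over 20 members, with HK1, a hexokinase, at 0.97 ± 0.31 and SLC2A4, the insulin-responsive glucose transporter, at -0.79 ± 0.37. HK1 and SLC2A4 were the only members with an unadjusted p under 0.05, again near the 8.04% of all genes. Without pig 12 HK1 differed by 0.58, SLC2A4 by -0.46, neither had an unadjusted p under 0.05, and the list median turned to 0.10. The second SLC2A4 probe set differed by 0.19 with all pigs. The 12 slow and 10 fast fibre genes had medians of -0.11 and -0.08, and 0.12 for each without pig 12.

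**Figure D3:**
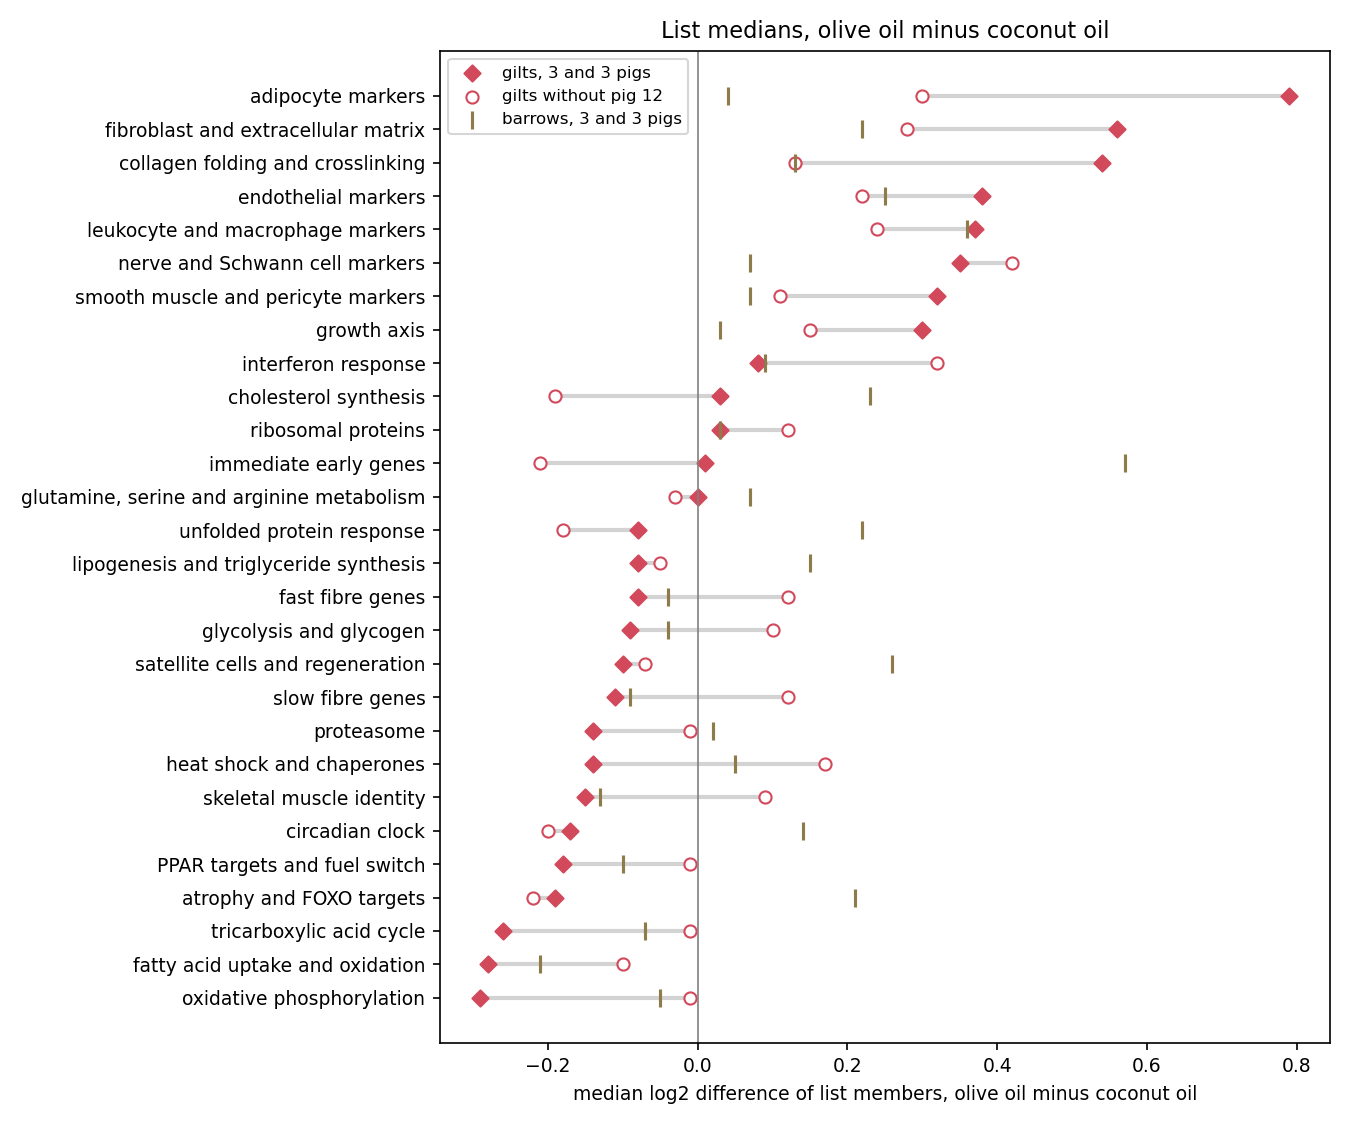
Median log2 difference, olive oil minus coconut oil, of the measured members of each gene list in the gilts, in the gilts without pig 12, and in the barrows. The median of matrix genes is 0.56, 0.28 without pig 12 and 0.22 in barrows, and that of oxidative phosphorylation is -0.29, -0.01 and -0.05.

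The list of atrophy genes and FOXO targets gave much the same median with and without pig 12. Of 30 genes of atrophy and of FOXO targets, 16 were measured, 12 with a negative difference, and the median was -0.19 and -0.22 without pig 12. FBXO32 and KLF15, 2 of the 16, had an unadjusted p under 0.05 in either case, though KLF15 lay at the threshold itself without pig 12. Of all 5345 genes, 8.04% had with all pigs and 3.09% without pig 12. KLF15, a transcription factor induced by glucocorticoids, had signals of 1269.9, 1284 and 1208.5 in olive pigs 4, 7 and 12 and of 1593, 2829 and 2069.7 in coconut pigs 1, 5 and 6. The olive pigs were nearly equal and all below the coconut pigs, and the difference was -0.75 ± 0.30 (adjusted p = 0.57). FOXO1 had 1084, 897 and 1237 against 1721, 2320.1 and 1926.5, again with the groups apart. Its difference was -0.89 ± 0.44, and that of FOXO3, whose groups overlapped, was -0.70 ± 0.33. All olive pigs were below all coconut pigs for 3 of the 16, against 5.74% of all genes.

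Stress and clock genes had few members apart. In the unfolded protein response, DDIT3, the factor CHOP, differed by -0.91 ± 0.39 with pig 4 between coconut pigs 1 and 6, and DNAJC3, a chaperone that inhibits the kinase PERK, by -0.66 ± 0.28 with the groups apart. These were the 2 of 14 members with an unadjusted p under 0.05, against 8.04% of all 5345 genes. The list median was -0.08 and -0.18 without pig 12. In the circadian clock, BHLHE40, a repressor of clock genes, had signals of 663, 491 and 636 in olive pigs 4, 7 and 12 and of 797, 1281 and 2385 in coconut pigs 1, 5 and 6. The groups stood apart, coconut pig 6 was the highest, and the difference was -1.18 ± 0.48. It was the only one of 7 measured clock genes with an unadjusted p under 0.05, against the same 8.04% of all genes. The immediate early, heat shock and proteasome lists, with 17, 25 and 32 measured genes, had none, and their medians were 0.01, -0.14 and -0.14. Without pig 12 these were -0.21, 0.17 and -0.01.

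In the growth axis, 11 genes were measured with a median of 0.30, or 0.15 without pig 12. IGFBP5, a binding protein of insulin-like growth factors, had signals of 1334, 965 and 2740.3 in olive pigs 4, 7 and 12 and of 750.1, 565 and 804 in coconut pigs 1, 5 and 6. All olive pigs were above, and the difference was 1.12 ± 0.39 and 0.70 without pig 12 (adjusted p = 0.542 with all pigs). The kinases AKT1 and AKT2, which carry the insulin signal, differed in opposite directions, by 0.51 ± 0.22 and -0.44 ± 0.18. Of the 11, IGFBP5, AKT1 and AKT2 had an unadjusted p under 0.05, against 8.04% of all 5345 genes. None had without pig 12. In amino acid metabolism, PSAT1, an enzyme of serine synthesis, differed by 1.32 ± 0.49 and was the only one of 20 genes with an unadjusted p under 0.05, a share below the 8.04% of all genes. Without pig 12 it differed by 0.74 and no longer had. The list median was 0.00, and -0.03 without pig 12.

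The leukocyte, endothelial and smooth muscle lists had positive median differences, but the olive and coconut pigs overlapped. As the median log2 deviation from the mean of the 6 pigs, coconut pig 5 was at 0.32 for leukocyte markers. Olive pigs 4 and 7 were at 0.13 and -0.05. For endothelial markers these 3 pigs were at 0.10, 0.09 and 0.04. Of 32 leukocyte and macrophage markers, 27 are on the array and 17 were measured, 16 with a positive difference and a median of 0.37, or 0.24 without pig 12, which was the highest for 11. MRC1, the mannose receptor of macrophages, had signals of 383, 513 and 1238.5 in olive pigs 4, 7 and 12 and of 300.0, 338 and 207 in coconut pigs 1, 5 and 6. All olive pigs were above, and the difference was 1.18 ± 0.43, or 0.68 without pig 12. MRC1, TYROBP, LAPTM5 and AIF1 had an unadjusted p under 0.05 in the positive direction, 4 of 17 against 5.16% of all genes, and none of the 17 had without pig 12. Coconut pig 1 was the lowest of the 6 for 13 of the 17 and the list median was 0.10 without it. The summed signal of the 27 markers was 20131.5 to 30465 in the olive pigs and 13093 to 26430 in the coconut pigs, which overlapped. Of the 10 markers below the level, PTPRC, CD4 and CD8A define leukocytes or T cells, and none of the 27 was at 0.

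Endothelial markers had a median of 0.38 over 14 genes, or 0.22 without pig 12, which was the highest for 10. VWF and NOS3 (0.73 ± 0.33) had an unadjusted p under 0.05, 2 of 14 against 8.04% of all genes. Without pig 12 NOS3 differed by 0.29 and only VWF had. Their summed signal was 13025 to 19340 in the olive pigs and 10396 to 14351 in the coconut pigs. Smooth muscle and pericyte markers had a median of 0.32 over 9 genes, and 0.11 without pig 12. CNN1, calponin, differed by 0.92 ± 0.37, MCAM by 0.73 ± 0.31 and TAGLN by 0.78 ± 0.37. These 3 of the 9 had an unadjusted p under 0.05, against the same 8.04% of all genes. Without pig 12, the highest for 7 of the 9, they differed by 0.61, 0.30 and 0.34 and none had. Interferon response genes had a median of 0.08 over 21 genes, and 0.32 without pig 12, with coconut pig 1 the lowest for 14. The guanylate-binding protein GBP2 differed by -0.95 ± 0.44, but by -0.23 without coconut pig 6, whose signal of 1070.4 was far above the 182 to 297 of the other 5. Nerve markers (6 measured), satellite cell genes (7) and erythrocyte markers (3) had medians of 0.35, -0.10 and -0.10, and 0.42, -0.07 and 0.03 without pig 12. The nerve markers S100B (0.82 ± 0.36) and GFAP (-0.72 ± 0.28) differed in opposite directions. Both had an unadjusted p under 0.05, against 8.04% of all genes. Without pig 12 they differed by 0.58 and -0.89 and only GFAP had. The 40 measured ribosomal protein genes had a median of 0.03, or 0.12 without pig 12, and olive pig 7 was the highest for 36. The 10 genes of cholesterol synthesis also had a median of 0.03, which turned to -0.19 without pig 12, with 2 of 10 positive.

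When the genes were ranked without pig 12, 8 per direction, PSMD10, PLPPR2, TMEM260 and RNF13 were again among the higher and RAB40C, SELRC1, HOGA1 and WDR46 among the lower. The other higher genes were the repressor CIC (0.67), the ribosomal protein RPS27 (1.53), the homeobox factor PBX2 (0.83) and a THY1 probe set (2.43). The other lower genes were the transcription factors RFX1 (-0.94) and GCM1 (-1.04), the acetylhydrolase PAFAH2 (-1.72) and LIN52 (-0.59), a subunit of a cell cycle repressor complex. CIC had signals of 923, 919 and 509.5 in olive pigs 4, 7 and 12 and of 591, 578 and 565 in coconut pigs 1, 5 and 6. Pigs 4 and 7 were nearly equal and above the coconut pigs, and pig 12 was below them all. The second RPS27 probe set differed by 0.14 with all pigs. The lowest adjusted p among these 16 genes was 0.461, so none passed.

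The same contrast was made in the barrows, which share no array with the gilts. No probe set passed there (0.0%), and 1119 (4.66%) had an unadjusted p under 0.05. The probe set called in gilts, Ssc.29946.1.A1_at, differed by 1.25 ± 0.31 in barrows (unadjusted p = 0.000891 in limma). Its signals were 45.0 to 53.8 in barrows fed olive oil and 16.8 to 25.5 in those fed coconut oil, again below the level of a measured gene. Over the 5345 genes the differences of gilts and barrows had a correlation of 0.17, and of 0.01 without pig 12. This is a correlation across genes, which are not independent replicates, and it is given as a description. Of the 276 higher genes of the gilts, 187 (67.8%) were also positive in barrows, where 52.7% of all genes were positive. Of the 154 lower genes, 81 (52.6%) were negative in barrows, against 47.3% of all genes. An unadjusted p under 0.05 in barrows was found for 2.69% of all genes. Of the 430 genes of the gilts it was found for 8 in the same direction and for 5 in the opposite direction.

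**Figure D4:**
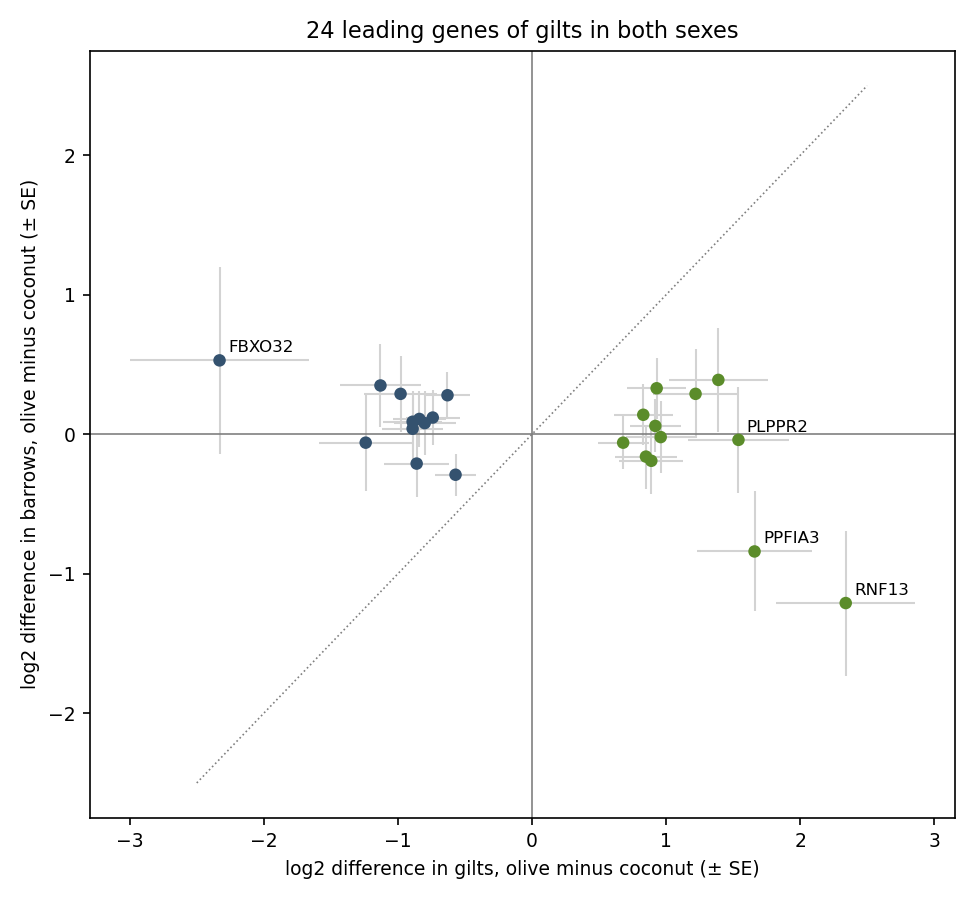
Log2 difference, olive oil minus coconut oil, of the 24 leading genes in gilts (horizontal axis) and barrows (vertical axis), with bars for 1 SE in each direction and a dotted line where both would be equal. Most genes lie near 0 in barrows, FBXO32 is at -2.33 in gilts and 0.53 in barrows, and RNF13 is at 2.34 and -1.21.

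The difference between the sexes was tested as an interaction, and no probe set passed (0.0%). The lowest adjusted p was 0.66, and 1291 probe sets (5.38%) had an unadjusted p under 0.05. Of the 24 leading genes, 5 of the 12 higher and 3 of the 12 lower had the same sign in barrows. The difference of FBXO32 was 0.53 ± 0.67 in barrows, and the interaction was -2.87 ± 0.95 (adjusted p = 0.845). Its signal ranged from 12599 to 20433.5 in barrows fed olive oil and from 9921 to 15876 in barrows fed coconut oil, so those groups overlapped. The gilts fed tallow ranged from 2630.0 to 10528 and those fed soybean oil from 4238 to 7729. The tallow gilts overlapped both groups compared here and the soybean gilts overlapped the olive gilts.

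RNF13 had the smallest interaction p, with a difference of -1.21 ± 0.52 in barrows and an interaction of 3.55 ± 0.74 (adjusted p = 0.66). Its signal was 108, 252 and 667 in the barrows fed olive oil and 541 to 674 in those fed coconut oil. The barrows fed tallow ranged from 228.5 to 637, so low signals were not confined to the gilts fed coconut oil. The amino acid transporter family member SLC38A10 had 1.30 ± 0.45 in gilts and -1.62 ± 0.45 in barrows, and CARD19 -0.69 ± 0.23 and 0.65 ± 0.23. PPFIA3 (1.66 and -0.84) and TOX4 (-0.63 and 0.28) were the other 2 of the 5 genes with the smallest interaction p. The atrophy list had a median of -0.19 in gilts and 0.21 in barrows. All 16 differences were positive in barrows, where 52.7% of all 5345 genes were. The 16 genes were measured in the same pigs and no interaction passed, so the change of sign is a description. Of the 16, 2 genes, FBXO32 and KLF15, had an interaction p under 0.05 before adjustment, as did 3.22% of all genes. KLF15 differed by 0.41 ± 0.30 in barrows. The matrix list had a median of 0.22 in barrows, with 23 of 25 positive, against the same 52.7% of all genes.

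**Figure D5:**
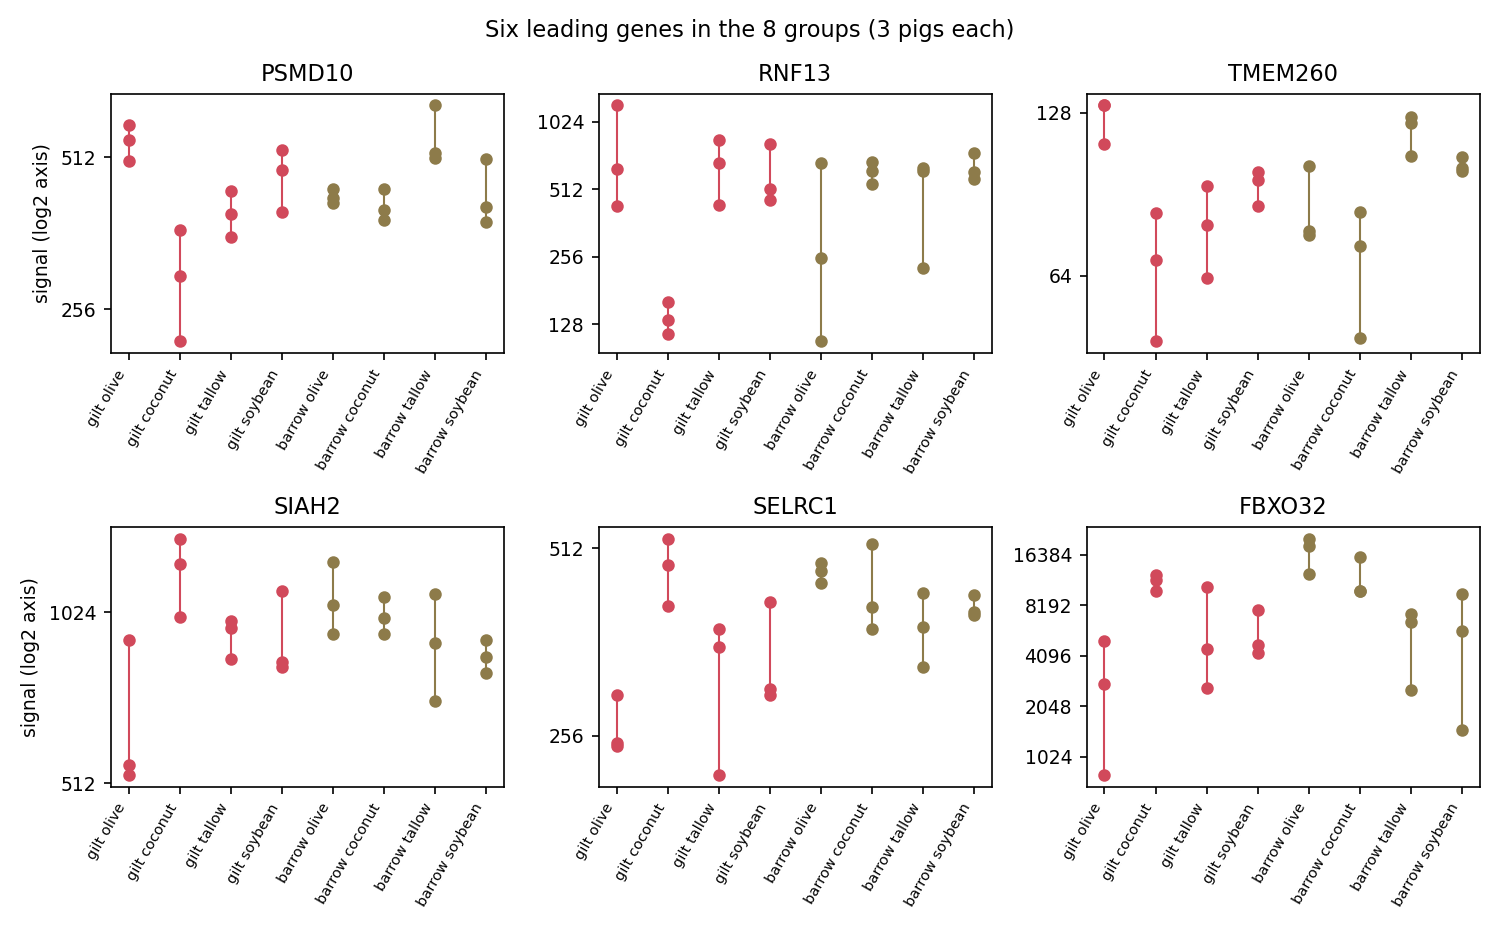
Signal of 6 leading genes on a log2 axis in the 8 groups of 4 fats and 2 sexes, 1 point per pig and 3 pigs per group. For FBXO32 the gilts fed olive oil reach down to 797 and the barrows fed olive oil lie at 12599 or above, and for RNF13 the 3 gilts fed coconut oil lie at 160.5 or below.

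The gilts fed tallow or soybean oil place the 2 oils on a wider scale. For the 12 leading higher genes the mean of the tallow gilts and that of the soybean gilts lay between the olive and coconut means in all 12. For the 12 lower genes this held in 12 for tallow and in 11 for soybean oil. Since the genes were chosen for the size of the olive to coconut difference, this order is a description and no evidence of an effect. At PSMD10 the tallow gilts had signals of 356 to 439 and the soybean gilts of 398 to 528, against 221 to 368 in the coconut gilts and 504 to 593 in the olive gilts. The tallow gilts overlapped the coconut gilts and the soybean gilts overlapped the olive gilts.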

How the data were processed

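Total RNA from longissimus dorsi was labelled with biotin after a 3′ amplification protocol and hybridised to Affymetrix pig arrays, per the labels' protocols, 1 array per pig. The authors deposited 1 intensity per probe set and array on a linear scale, where whole probe sets are already summarised. The name of the summarisation algorithm was not given in the sources used here. The values show that each array had been scaled to a common trimmed mean (2% from each end). Their number, 3 per group, limits the precision, and the files give no background or detection values.

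The table has 24123 probe sets, of which 124 controls were left out. Values were log2-transformed after adding 1. Limma 3.58.1 in R 4.3.3 fitted 8 group means to all 24 arrays, which share 1 estimate of the spread (16 residual degrees of freedom). Differences are olive minus coconut with the moderated standard error, and p-values were adjusted by Benjamini-Hochberg over the 23999 probe sets. The script was tested on simulated data.

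Symbols come from the platform annotation and were updated through the RefSeq annotation of Sscrofa11.1, used for names only. A single symbol was given for 10069 probe sets, several for 198 and none for 13732, and 9961 matched a RefSeq identifier. A gene counted as measured where the mean over 24 arrays of its brightest probe set was at or above the 40th percentile (signal 86.3). Genes were named by rule: at most 1 probe set per gene, the 12 smallest p per direction, the 8 smallest per direction without pig 12, the 5 smallest of the interaction, up to 4 members with the smallest p in each list described, and SCD, FASN, ADIPOQ, PPARGC1A, CPT1B, PDK4 and MYH7. Names beyond these, such as COL6A2, POSTN, BGN, COL1A2, COL3A1, LEP, PNPLA2, GPD1, S100B and GFAP, were added as list members after their values were seen. The comparison, the rule and the 29 gene lists were chosen with earlier results of these data known. Alternatives changed the normalisation, the filter, the pseudocount, the spread model, the arrays in the fit and each pig in turn.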

Additional observations from a re-analysis of the deposited data

How the results depend on the processing

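The count of probe sets called at an adjusted p under 0.05 was 1. It was 0 with probe sets below the 40th or the 60th percentile of mean signal left out, where the called probe set itself was not tested, with a pseudocount of 16, with a trended and robust spread, and with only the 6 arrays compared or only the 12 gilts. Leaving out each pig in turn gave 1 to 3. Without pig 12 it was 2, without pig 1 or pig 5 also 2, and without pig 7 it was 3, including LRRC8A (3.25) and ADCYAP1 (-2.62), both below the level of a measured gene. The unadjusted count of 1941 was 1065 above the 60th percentile and 1237 to 2700 with each pig left out, the lowest without pig 12 and the highest without pig 7. Combining the 40th percentile filter with the removal of pig 12, an alternative chosen after seeing the data, gave 696, and 1 adjusted call, Ssc.7494.1.A1_at without a symbol (-1.63, adjusted p = 0.0466 in limma). With the arrays centred on their medians, the median difference was -0.05 in place of -0.01, and 950 of 1964 unadjusted calls were higher in place of 1057 of 1941. The interaction of fat and sex had 0 calls in every setting run, with 1291 probe sets at an unadjusted p under 0.05 in the fit of all arrays. The cause of these changes was not tested beyond the smaller number of probe sets or pigs that a setting leaves.

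Of the list medians, that of smooth muscle and pericyte markers was 0.32, 0.14 with array weights and 0.11 to 0.45 with each pig left out. The same range was -0.21 to 0.07 for immediate early genes, -0.30 to 0.17 for heat shock genes, -0.33 to -0.14 for atrophy genes and -0.35 to 0.08 for the unfolded protein response. Of the named genes, 5 changed sign without pig 12: PDK4 (-0.25 to 0.13 over the pigs left out), MYH7 (-0.32 to 0.09), TCAP (-0.73 to 0.03), DES (-0.55 to 0.01) and TTN (-0.42 to 0.11). No paired analysis was possible because the numbers in the titles run from 1 to 24 over all pigs, so the groups share none. The number of arrays, 3 per group, limits the precision, and a p that missed the threshold does not show that the oils acted alike.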
